A study of Macaca mulatta with 24 samples.

Results

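Transcripts of the DNA replication machinery and of the S phase programme were followed in rhesus macaque ileum after total-body irradiation (TBI). The set held 49 listed genes in 9 roles, from origin recognition to the supply of deoxynucleotides. A gene was represented by its brightest probe over all 24 arrays among the probes that carry its symbol in the deposited normalized table. Of the 49 symbols, 38 had such a probe, out of 16094 distinct symbols on the array, and 37 could be tested. MCM2, CDT1, CDC45, GINS1, ORC2, ORC6, POLE, POLE2, PRIM1, RFC1 and CCNE2 had no probe under these symbols and were not analysed here. The probe of POLA1, the catalytic subunit of DNA polymerase alpha, was well above background on 8 of the 24 arrays and in no group on every array, and it was not tested.

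Before each division a cell licenses its replication origins by loading the MCM helicase onto sites bound by the origin recognition complex. In S phase the kinase CDC7 with DBF4 and the GINS complex turn the loaded helicase into an active fork, RPA covers the single strands, polymerases copy them on the clamp PCNA, and FEN1 and LIG1 join the lagging strand pieces. E2F transcription factors switch on many of these genes together at the G1/S border. In the small intestine such cells lie mainly in the crypts, whose progenitors renew the epithelium, and in the germinal centres of the gut lymphoid tissue.

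All 24 macaques were males in early adulthood. Controls had a sham procedure, and the irradiated animals were given 1 whole-body gamma exposure (cobalt-60) of either 6.7 Gy or 7.4 Gy. Ileum of 4 animals was measured on day 4, of 4 on day 7 and of 2 on day 12 after each dose, and the same 4 unirradiated controls, labelled day 4, served every comparison, so that all comparisons with controls share these animals. Each animal gave 1 array without pooling, and the RNA came from a whole piece of ileum. In such tissue, fewer cells of a type and less RNA per cell cannot be told apart. The number of animals limits the precision, and on day 12 the spread of a pair of animals is supplemented by that of the other groups.

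Signals are given as log2 intensity minus the 75th percentile of the array, changes as log2 differences of group means, and adjusted p refers to limma's moderated test over all 36108 tested probes. A gene passed at an adjusted p under 0.05 and was called altered if it also changed at least 2-fold. Between 72.7% and 88.1% of probes were well above background on an array, and of the 37 tested genes 36 were so on all arrays. FABP6, the bile acid-binding protein that marks ileal enterocytes, had a control mean of 8.74 ± 0.05 (SD, n = 4). Every control lay on position 1 of its 4-array slide, as did replicates 1 and 2 of 6.7 Gy day 4. Replicates 3 and 4 of that group and all arrays of 7.4 Gy day 4 lay on position 2. For 7.4 Gy day 4, position and irradiation can be separated only through the arrays of 6.7 Gy day 4. The day 7 and day 12 arrays lay on positions 3 and 4, and for these days position and irradiation cannot be told apart.

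Without array position in the fit, positive values predominated among the replication genes on day 4, and TYMS, the synthase of thymidylate for DNA, showed the largest change of the 37. After 6.7-Gy TBI 5 of 37 genes rose and none fell (1.38% of all probes rose): TYMS, MCM4, GINS2, POLD2 and RPA1. After 7.4-Gy TBI 4 of 37 rose and none fell (3.55% of all probes rose): TYMS, POLD2, RPA1 and LIG1. The median change over the 37 genes was 0.42 at 6.7 Gy and 0.24 at 7.4 Gy, against -0.10 and -0.07 over all tested probes. Positive changes were measured for 35 and 30 of the 37 genes, compared with 38.8% and 42% of all probes, and 18 and 12 of them, or 48.6% and 32.4%, had an unadjusted p under 0.05, against 9.13% and 11% of all probes upward. With only the compared groups in the fit 1 and 2 genes passed, and by the methods' t-test after Benjamini-Hochberg adjustment 0 and 2. None passed at either dose once array position entered a fit of only the day 4 and control arrays, with medians of 0.10 at 6.7 Gy and -0.35 at 7.4 Gy. The position term of that fit rests on replicates 3 and 4 of 6.7 Gy against replicates 1 and 2.

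**Figure D1:**
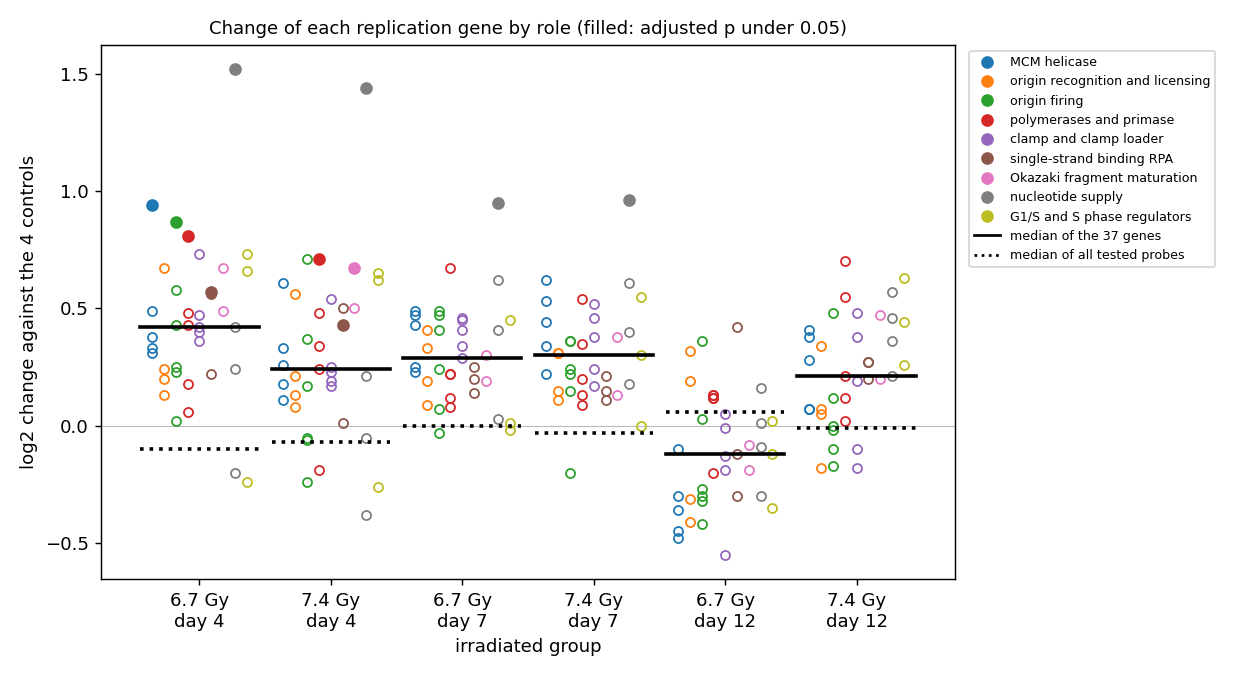
Log2 change of each of the 37 replication genes against the 4 controls, by irradiated group and coloured by role; filled points passed at an adjusted p under 0.05, solid lines are the medians of the 37 genes and dotted lines those of all tested probes. On day 4 the solid lines lie at 0.42 and 0.24 and the dotted lines at -0.10 and -0.07, and TYMS is the uppermost point of every group through day 7.

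Among the genes of nucleotide supply, TYMS read 0.79, 1.37, 1.04 and 1.1 in the controls. On day 4 it read 2.43, 2.53, 2.36 and 3.08 at 6.7 Gy and 2.42, 2.19, 2.69 and 2.78 at 7.4 Gy. All 8 irradiated animals of day 4 lay above all 4 controls. The change was 1.52 ± 0.21 (SE), or 2.87-fold, with an adjusted p of 4.3e-04 after the lower dose, and 1.44 ± 0.21, or 2.72-fold, with an adjusted p of 5.1e-04 after the higher dose. TYMS was the only one of the 37 genes altered on day 4 (0.595% and 1.60% of all probes were altered upward). In all, 4 probes carry its symbol, and they gave changes from 1.38 to 1.73 on day 4 with adjusted p from 2.9e-05 to 7.5e-04.

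The other genes that feed or salvage deoxynucleotides had smaller values. RRM1 and RRM2 encode the subunits of ribonucleotide reductase, which makes deoxynucleotides from ribonucleotides. RRM1 was at 0.42 and 0.21 on day 4 and RRM2 at -0.20 and -0.38, none of which passed. RRM2 ranged from -1.80 to -1.24 in the controls, from -2.39 to -1.15 at 6.7 Gy and from -2.55 to -1.55 at 7.4 Gy, with wide overlap. TK1, the cytosolic thymidine kinase of the salvage route, was at 0.24 and -0.05 on day 4 and did not pass either.

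Within the MCM helicase, the ring that unwinds DNA at the fork, the 5 tested subunits lay between 0.31 and 0.94 on day 4 at 6.7 Gy and between 0.11 and 0.61 at 7.4 Gy, and 1 passed. MCM4 read 1.53, 0.98, 1.32 and 1.68 in the controls, 2.17, 1.82, 2.08 and 3.20 at 6.7 Gy and 2.30, 1.91, 1.73 and 2.01 at 7.4 Gy. The groups did not overlap at either dose, although the lowest irradiated animals, at 1.82 and 1.73, came close to the highest control at 1.68. MCM4 rose by 0.94 ± 0.25 with an adjusted p of 0.048 after the lower dose, and its difference of 0.61 ± 0.25 after the higher dose did not pass, with an adjusted p of 0.14.

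Of the 4 tested genes of origin recognition and licensing, ORC3, a core subunit of the origin recognition complex, had the smallest p. It read -1.52, -1.45, -1.43 and -1.13 in the controls, -0.81, -0.97, -1.03 and -0.06 on day 4 at 6.7 Gy and -0.57, -1.23, -0.69 and -0.81 at 7.4 Gy. The groups did not overlap at 6.7 Gy, and at 7.4 Gy 1 animal reached the controls. The differences of 0.67 ± 0.21 and 0.56 ± 0.21 did not pass, with adjusted p of 0.084 and 0.11. ORC1, ORC5 and the MCM loader CDC6 lay between 0.08 and 0.24 on day 4.

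In origin firing, GINS2, a subunit of the complex that activates the helicase, read 1.28, 1.41, 0.80 and 1.45 in the controls. On day 4 it read 2.06, 1.67, 1.89 and 2.80 at 6.7 Gy and 1.78, 1.66, 2.24 and 2.07 at 7.4 Gy, in each case above all controls. GINS2 rose by 0.87 ± 0.22 (adjusted p = 0.042) after the lower dose. After the higher dose the difference of 0.71 ± 0.22 did not pass (adjusted p = 0.062). The sister subunits GINS3 and GINS4, at 0.02 and 0.43 at 6.7 Gy and at -0.24 and -0.06 at 7.4 Gy, did not pass, and neither did MCM10 (0.58 and 0.37), CDC7 (0.23 and 0.17) or its activator DBF4 (0.25 and -0.05).

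POLD2, the small subunit of the lagging strand polymerase delta, passed at both doses on day 4. It read 1.45, 1.80, 1.83 and 2.11 in the controls, 2.35, 2.40, 2.52 and 3.15 at 6.7 Gy and 2.62, 2.43, 2.65 and 2.34 at 7.4 Gy, with no overlap. The increases were 0.81 ± 0.18 (adjusted p = 0.024) and 0.71 ± 0.18 (adjusted p = 0.025). The catalytic subunit POLD1 was at 0.48 at both doses without passing, and POLD3, POLA2 and the primase subunit PRIM2 lay between -0.19 and 0.43.

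RPA1, the large subunit of the single-strand binding protein, read -2.67, -2.43, -2.51 and -2.43 in the controls, -2.07, -2.07, -1.86 and -1.75 on day 4 at 6.7 Gy and -2.23, -2.08, -1.97 and -2.05 at 7.4 Gy. Again no irradiated animal reached down to the controls. RPA1 rose by 0.57 ± 0.13 (adjusted p = 0.021) and by 0.43 ± 0.13 (adjusted p = 0.045), the latter a call that was lost whichever animal was left out. RPA2 was at 0.56 and 0.50 and RPA3 at 0.22 and 0.01, and neither passed.

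LIG1, the ligase that seals lagging strand fragments, read 1.74, 1.56, 1.82 and 1.63 in the controls. It read 2.07, 2.09, 1.97 and 2.57 on day 4 at 6.7 Gy and 2.29, 2.38, 2.38 and 2.39 at 7.4 Gy. The higher dose gave a narrow group well above the controls, with an increase of 0.67 ± 0.13 and an adjusted p of 0.0066. After the lower dose, with no overlap either, the difference of 0.49 ± 0.13 missed the threshold, with an adjusted p of 0.054. FEN1, the flap nuclease that acts before LIG1, was at 0.67 and 0.50 and did not pass.

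No gene of the clamp and its loader passed in limma's test on day 4, and 2 of 5 at 6.7 Gy and 1 of 5 at 7.4 Gy had an unadjusted p under 0.05 upward (9.13% and 11% of all probes). RFC3, a subunit of the loader that opens PCNA onto DNA, read -1.45, -1.63, -1.90 and -1.38 in the controls, -0.92, -1.47, -0.87 and -0.20 at 6.7 Gy and -1.11, -1.27, -0.75 and -1.08 at 7.4 Gy. Replicate 2 of the lower dose lay among the controls and the higher dose did not overlap with them. The differences were 0.73 ± 0.22 and 0.54 ± 0.22 with adjusted p of 0.073 and 0.14. PCNA itself was at 0.47 and 0.25, RFC2 at 0.42 and 0.23, RFC4 at 0.36 and 0.17 and RFC5 at 0.40 and 0.19.

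No regulator of S phase entry passed in limma's test on day 4, and 2 of 3 at each dose had an unadjusted p under 0.05 upward (9.13% and 11% of all probes). CCNE1, the cyclin that drives CDK2 at the G1/S border, read -1.09, -1.51, -1.03 and -0.30 in the controls, -0.48, -0.58, -0.42 and 0.48 at 6.7 Gy and -0.14, -0.79, 0.03 and -0.45 at 7.4 Gy. Control replicate 4 overlapped with both irradiated groups. The differences of 0.73 ± 0.26 and 0.65 ± 0.26 had adjusted p of 0.12 and 0.14. UHRF1, which brings the maintenance methylase to replicated DNA, was at 0.66 and 0.62 without passing. E2F1, the transcription factor at the head of the programme, had negative values at both doses, -0.24 and -0.26, which did not pass, and at 7.4 Gy all 4 animals lay below all controls, by less than the rounding of 0.52 for the nearest pair.

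**Figure D2:**
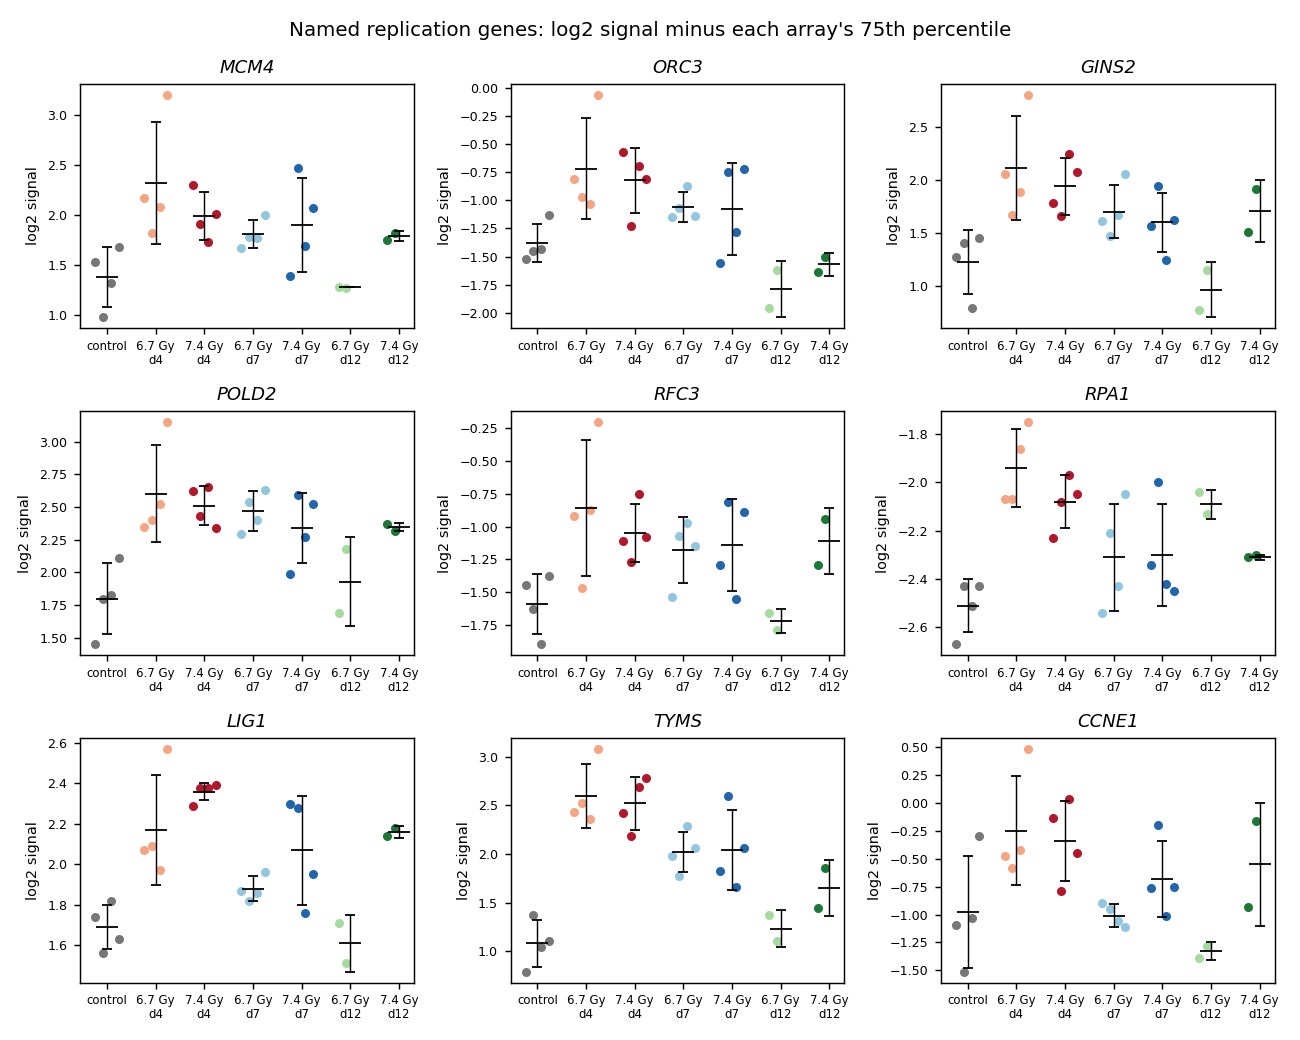
Log2 signal minus the 75th percentile of the array for the 9 genes described by their values on every array; points are animals in order of replicate number, and bars are the mean and SD of each group (n = 4, or 2 on day 12). MCM4, GINS2, POLD2, RPA1, LIG1 and TYMS on day 4 lie above every control at both doses.

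Several tested probes exist for 12 of the 37 genes. On day 4 the 2 probes of RFC3 gave 0.73 and 0.73 at 6.7 Gy and 0.54 and 0.48 at 7.4 Gy, and those of RPA2 0.56 and 0.55 and then 0.50 and 0.40. ORC5 was the gene whose probes disagreed in sign at both doses, with 0.13 and 0.08 for the brighter and -0.11 and -0.17 for the dimmer probe, and none of these passed.

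Counted over the 37 genes, 7 had all 4 animals above all controls on day 4 at 6.7 Gy (4.10% of all probes) and 7 at 7.4 Gy (7.84% of all probes). MCM4, GINS2, POLD2, RPA1, LIG1 and TYMS belonged to both sets, which share the controls.

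The size of the day 4 shift differed between animals. The median over the 37 genes, relative to the control mean, was 0.28, -0.14, 0.39 and 1.09 for the 4 animals of 6.7 Gy and 0.48, 0.04, 0.47 and 0.22 for those of 7.4 Gy, while the controls lay at -0.09, -0.06, -0.07 and 0.21. Replicate 4 of the lower dose stood apart, with 36 of the 37 genes above all controls, where 25% of all probes lay above and 41.5% below all controls. On the same array the crypt and progenitor markers had a median of 1.08, the G2/M and mitosis genes of 1.20 and the ileal and enterocyte markers of -1.73, each the most extreme of all 24 arrays, and 76.8% of its probes were well above background. Without this animal the median change at 6.7 Gy was 0.19 and 1 gene passed, TYMS, at 1.36. The part of the other markers in these values was not tested.

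**Figure D3:**
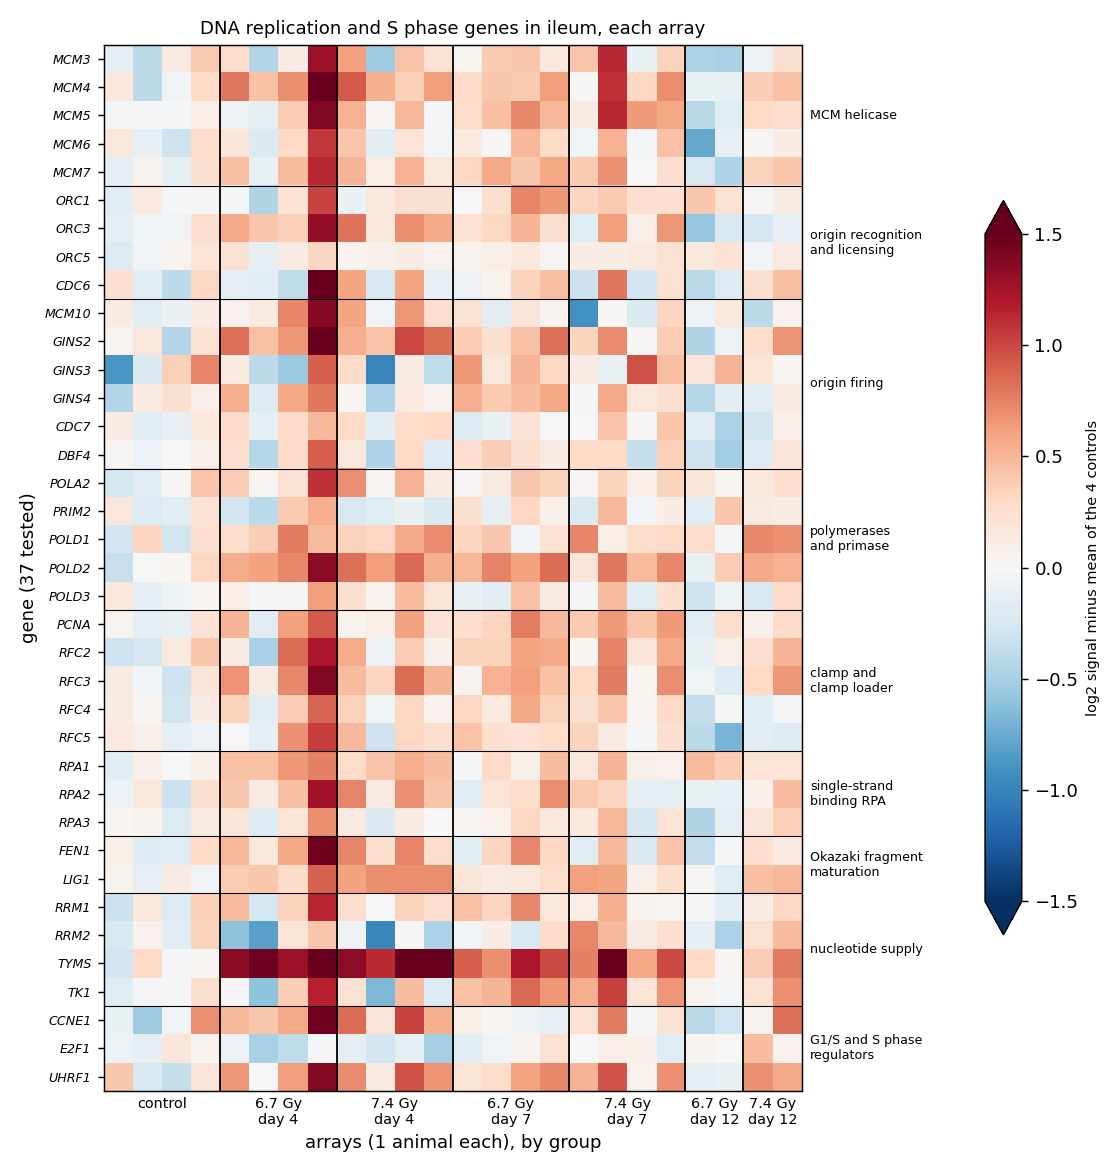
Log2 signal of the 37 tested genes (rows, by role) on each of the 24 arrays (columns, by group and replicate number), relative to the mean of the 4 controls; the colour scale ends at -1.5 and 1.5. The fourth column of 6.7 Gy day 4 is raised in nearly every row, and the TYMS row is raised on every array of days 4 and 7.

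Leaving out other single animals also moved the day 4 counts. After 6.7-Gy TBI 1 gene passed without control replicate 1, 2 without control replicate 3, and 3 without control replicate 2, control replicate 4 or replicate 1 of the irradiated group. After 7.4-Gy TBI 2 passed without control replicate 1, replicate 1 or replicate 3. TYMS passed at both doses, and LIG1 at the higher dose, whichever of the 8 animals was left out. The other calls were lost in part: RPA1 passed in 6 of the 8 fits at 6.7 Gy and in 0 of 8 at 7.4 Gy, POLD2 in 5 of 8 at each dose, GINS2 in 2 of 8 and MCM4 in 1 of 8. Within position 1, which holds the controls and replicates 1 and 2 of 6.7 Gy day 4, TYMS was higher by 1.40, GINS2 by 0.63, MCM4 by 0.62, POLD2 by 0.58 and RPA1 by 0.44, and the median over the 37 genes was 0.10 (all probes, -0.08). With position as a covariate over the day 4 and control arrays the values of TYMS were 1.40 and 1.20, with adjusted p of 0.068 and 0.27. For 7.4 Gy, whose arrays all lie on position 2, that correction rests on the 4 animals of 6.7 Gy, replicate 4 included.

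On day 7 TYMS alone passed, with a smaller change than on day 4, and positive values again predominated among the other replication genes. Of the 37 genes 1 rose at 6.7 Gy (0.0942% of all probes rose) and 1 at 7.4 Gy (0.258% of all probes rose). TYMS read 1.98, 1.77, 2.29 and 2.06 after the lower dose and 1.83, 2.60, 1.66 and 2.06 after the higher dose, all above the highest control. It rose by 0.95 ± 0.21 (adjusted p = 0.041) and by 0.96 ± 0.21 (adjusted p = 0.024). Of the 4 TYMS probes 2 passed at 6.7 Gy, the others having adjusted p of 0.052 and 0.068. At 7.4 Gy all 4 probes passed, with adjusted p from 0.003 to 0.05 as rounded. After 6.7-Gy TBI no gene passed without control replicate 1, 3 or 4 or without any 1 of the 4 irradiated animals, and at 7.4 Gy none without control replicate 1, 3 or 4 or without irradiated replicate 2 or 4. The blocked fit by replicate number gave TYMS an adjusted p of 0.052 at 6.7 Gy. No gene passed at either dose with only the compared groups in the fit or by the methods' t-test. The same held at 6.7 Gy with no filter on dim probes and at 7.4 Gy with slide as a fixed block.

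The median change on day 7 was 0.29 at 6.7 Gy and 0.30 at 7.4 Gy, against 0.00 and -0.03 over all probes, and 35 of 37 genes were positive at each dose. Leaving out 1 animal gave medians from 0.25 to 0.38 and from 0.19 to 0.34. The single animals had medians of 0.22, 0.25, 0.42 and 0.31 after the lower dose and of 0.17, 0.52, 0.07 and 0.32 after the higher dose. Of these, 2 animals at 7.4 Gy lay within the range of the controls, -0.09 to 0.21. All 4 animals lay above all controls for 11 genes at 6.7 Gy (4.47% of all probes), among them MCM5, MCM7, PCNA, POLD2 and TK1, and for 4 at 7.4 Gy (3.72% of all probes), MCM5, ORC1, PCNA and TYMS. PCNA ranged from 2.59 to 3.12 and from 2.74 to 2.99 on day 7, with the controls between 2.22 and 2.57. No animal of day 7 overlapped with the controls for this sliding clamp, and the differences of 0.45 and 0.52 had adjusted p of 0.44 and 0.23. TK1, which ranged from 2.75 to 4.52 and from 2.68 to 3.82 on day 4 around controls of 3.17 to 3.60, was at 0.62 and 0.61 on day 7, with adjusted p of 0.51 and 0.36.

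The roles did not keep their day 4 order on day 7. The MCM helicase had medians of 0.43 and 0.44 on day 7 (0.38 and 0.26 on day 4), the clamp and its loader of 0.41 and 0.38 (0.42 and 0.23) and nucleotide supply of 0.51 and 0.50 (0.33 and 0.08). Lower medians than on day 4 were measured for polymerases and primase, at 0.22 and 0.20 (0.43 and 0.34), for RPA, at 0.20 and 0.15 (0.56 and 0.43), for the lagging strand genes FEN1 and LIG1, at 0.24 and 0.26 (0.58 and 0.58), and for the G1/S regulators, at 0.01 and 0.30 (0.66 and 0.62). These differences between roles were not tested.

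The genes that passed on day 4 read as follows on day 7. POLD2 read 2.29, 2.54, 2.40 and 2.63 at 6.7 Gy and 1.99, 2.59, 2.27 and 2.52 at 7.4 Gy, with differences of 0.67 and 0.54 (adjusted p of 0.14 and 0.18). The lower dose stayed above all controls and the higher dose overlapped with 1 control. MCM4 read 1.67, 1.78, 1.77 and 2.0 and then 1.39, 2.47, 1.69 and 2.07, with differences of 0.43 and 0.53 (adjusted p of 0.64 and 0.37). GINS2 read 1.61, 1.47, 1.67 and 2.06 and then 1.57, 1.94, 1.25 and 1.62, with differences of 0.47 and 0.36 (adjusted p of 0.53 and 0.49). For both genes the spread among the animals of 7.4 Gy covered part of the control range. LIG1 read 1.87, 1.82, 1.86 and 1.96 and then 2.30, 2.28, 1.76 and 1.95, with differences of 0.19 and 0.38. RPA1 read -2.54, -2.21, -2.43 and -2.05 and then -2.34, -2.00, -2.42 and -2.45, with differences of 0.20 and 0.21.

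ORC3 read -1.15, -1.07, -0.87 and -1.14 on day 7 at 6.7 Gy and -1.56, -0.75, -1.28 and -0.72 at 7.4 Gy. The lowest animals of the first group, at -1.15 and -1.14, reached the highest control at -1.13, and the second group reached from below the control range to above it. RFC3 read -1.54, -1.07, -0.97 and -1.15 and then -1.29, -0.81, -1.55 and -0.89, and CCNE1 read -0.90, -0.95, -1.06 and -1.11 and then -0.76, -0.20, -1.01 and -0.75. All 4 animals at 6.7 Gy and 3 of 4 at 7.4 Gy lay within the control range of CCNE1, with differences of -0.02 and 0.30 (adjusted p of 0.99 and 0.65).

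On day 12 no gene of the 37 passed at either dose in limma's test, and the median change was negative at 6.7 Gy and positive at 7.4 Gy. After 6.7-Gy TBI none of the 37 passed (0.0499% of all probes rose), 1 had an unadjusted p under 0.05 upward and 1 downward (5.27% and 3.71% of all probes), and the methods' t-test after Benjamini-Hochberg adjustment called 0. After 7.4-Gy TBI none passed (0.0194% of all probes rose), 4 had an unadjusted p under 0.05, all upward (3.29% of all probes), and the methods' t-test called 0. The median change was -0.12 after the lower dose, with 24 of 37 genes negative, and 0.21 after the higher dose, with 30 of 37 positive, against 0.06 and -0.01 over all probes. Leaving out 1 animal gave medians from -0.22 to -0.06 and from 0.18 to 0.32. The animals had medians of -0.14 and -0.10 at 6.7 Gy and of 0.18 and 0.28 at 7.4 Gy, against -0.09 to 0.21 in the controls, so that 1 animal at 7.4 Gy lay within that range.

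The MCM genes showed this difference in direction on day 12. After 6.7-Gy TBI the 5 tested subunits ran from -0.48 to -0.10, and at 7.4 Gy from 0.07 to 0.41. MCM7 read between 3.83 and 4.05 after the lower dose and between 4.64 and 4.71 after the higher dose, with the controls between 4.15 and 4.53. LIG1 read 1.71 and 1.51 at 6.7 Gy and 2.14 and 2.18 at 7.4 Gy, GINS2 read 0.78 and 1.15 and then 1.51 and 1.91, and POLD2 read 1.69 and 2.18 and then 2.37 and 2.32. In these 3 genes the pair of the higher dose lay above all controls and the pair of the lower dose had at least 1 animal among or below them. RPA1 read -2.04 and -2.13 at 6.7 Gy and -2.31 and -2.30 at 7.4 Gy, above all controls at both doses, with differences of 0.42 (adjusted p = 0.41) and 0.20. Both animals lay below all controls for 7 genes at 6.7 Gy (7.56% of all probes), MCM3, MCM5, MCM7, ORC3, CDC7, DBF4 and RFC5. Both lay above all controls for 12 genes at 7.4 Gy (8.43% of all probes), including MCM4, MCM5, MCM7, GINS2, POLD1, LIG1 and TYMS. In the opposite directions, ORC1 and RPA1 lay above all controls at 6.7 Gy (15.3% of all probes) and RFC5 below them at 7.4 Gy (9.37% of all probes).

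When the doses were compared directly, no gene of the 37 passed on any day in limma's test (0% of all probes on day 4, 0% on day 7 and 0.00277% on day 12). The median difference, 7.4 Gy minus 6.7 Gy, was -0.16 on day 4, with 34 of 37 genes lower after the higher dose, -0.02 on day 7 and 0.39 on day 12, with 31 of 37 higher. The day 4 direction depended on 1 animal. Without replicate 4 of 6.7 Gy day 4 the median change against controls at that dose was 0.19, below the 0.24 at 7.4 Gy. On day 4 the arrays of 7.4 Gy all lay on position 2 and those of 6.7 Gy on positions 1 and 2. An unadjusted p under 0.05 was found for 1 gene on day 4, lower after the higher dose (1.94% of all probes), for 0 on day 7 (1.82% of all probes higher and 2.2% lower) and for 7 on day 12, all higher (1.86% of all probes). The methods' t-test, which the study described for comparisons with controls, called 0 on each day. The 7 genes of day 12 were MCM7, GINS2, POLD1, RPA3, LIG1, CCNE1 and UHRF1, which were higher at 7.4 Gy by 0.55 to 0.79. The day 12 arrays all lay on position 4, those of 6.7 Gy on slides 3 and 4 and those of 7.4 Gy on slides 5 and 6, and dose and slide could be separated there only through the other groups.

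Days were compared with the doses averaged. The day 4 arrays lay on positions 1 and 2 and those of days 7 and 12 on positions 3 and 4, so that differences from day 4 and differences of position cannot be told apart. From day 4 to day 7, 3 of 37 fell (5.56% of all probes fell): TYMS with -0.53 (adjusted p = 0.022), RPA1 with -0.30 (adjusted p = 0.032) and LIG1 with -0.29 (adjusted p = 0.045). None rose in limma's test (7.63% of all probes rose), and 3 genes had an unadjusted p under 0.05 upward (17.2% of all probes). The share of the 37 genes that fell was near that of all probes. The median over the 37 genes was -0.06, and single genes went in opposite directions, with CCNE1 at -0.55 and MCM10 at -0.53 and with TK1 at 0.52 and RRM2 at 0.50, which all had adjusted p between 0.056 and 0.093.

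From day 4 to day 12, 6 of 37 genes fell (6.80% of all probes fell) and 1 rose (10.7% of all probes rose). By the methods' t-test, run here with both doses pooled, 2 of these 7 passed, ORC3 and TYMS. With quantile normalization 11 genes passed. TYMS fell by 1.12 ± 0.18 (adjusted p = 7.2e-04) and read 1.37 and 1.1 on day 12 at 6.7 Gy and 1.44 and 1.86 at 7.4 Gy. ORC3 fell by 0.91 ± 0.18 (adjusted p = 0.0034), to -1.96 and -1.62 at the lower and to -1.64 and -1.50 at the higher dose. The lower-dose pair lay below all controls, but the comparison with them did not pass at either dose (adjusted p of 0.67 and 0.93). GINS2 (-0.68), RFC5 (-0.66), CDC7 (-0.41) and LIG1 (-0.38) fell as well. E2F1 rose by 0.40 (adjusted p = 0.025), from means of 0.41 and 0.39 on day 4 to 0.68 and 0.91 on day 12. The median over the 37 genes was -0.35, against 0.09 over all probes.

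The counts between days depended on single animals, and the share of all probes was not counted in the fits without 1 animal. Without replicate 2 of 6.7 Gy day 4, 14 genes passed between day 12 and day 4, and without 6.7 Gy day 12 replicate 1 or 2, 3 passed, or 2 without 7.4 Gy day 12 replicate 1. Between day 7 and day 4, 1 passed without 7.4 Gy day 4 replicate 3 or 4 or 6.7 Gy day 7 replicate 1 or 3, and 0 without 7.4 Gy day 7 replicate 3. From day 7 to day 12 none passed in limma's test (0.127% of all probes fell), 11 genes had an unadjusted p under 0.05, all downward (6.06% of all probes), the methods' t-test called 0, and the median was -0.23 with 33 of 37 negative. All day 12 arrays lay on position 4, and those of day 7 lay on positions 3 and 4.

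Other genes of the same processes gave a mixed picture. In the supply of nucleotides outside the set, 5 of 10 listed genes were tested and 2 rose at each dose on day 4 (1.38% and 3.55% of all probes rose). SHMT1, which with TYMS belongs to the cytosolic cycle that makes thymidylate, ranged from -0.65 to -0.27 in the controls, from 0.76 to 1.90 at 6.7 Gy and from 0.80 to 1.43 at 7.4 Gy. It rose by 1.57 (adjusted p = 4.4e-04) and by 1.44 (adjusted p = 7.0e-04). On day 7 SHMT1 was at 0.41 and 0.37 without passing, and from day 4 to day 7 it fell by 1.12 (adjusted p = 1.9e-04). NME1, a nucleoside diphosphate kinase, rose by 1.05 (adjusted p = 0.048) and by 0.95 (adjusted p = 0.045) on day 4. DTYMK, the kinase that takes thymidylate onward, was at 0.68 and 0.48 and DCTPP1, a nucleotide pyrophosphatase, at 0.65 and 0.48, and these did not pass.

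Of 21 tested genes for other fork, checkpoint and chromatin assembly functions (30 listed), 1 rose and 1 fell on day 4 at 6.7 Gy and 1 rose at 7.4 Gy, with medians of 0.23 and 0.14. Over all probes 1.38% rose and 1.23% fell at 6.7 Gy and 3.55% rose at 7.4 Gy, and the count at 7.4 Gy was near that share. HELLS, a chromatin remodeller of dividing cells, rose by 0.78 (adjusted p = 0.031) and by 0.64 (adjusted p = 0.043). POLD4, the smallest subunit of polymerase delta, fell by 0.84 (adjusted p = 0.035) after the lower dose, in the opposite direction to POLD2, and was at -0.36 (adjusted p = 0.3) after the higher dose. The histone chaperone NASP was at 0.42 and 0.31 and the MCM relative MCM8 at 0.55 and 0.36, without passing.

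Among 16 tested G1/S regulators outside the set (20 listed), none passed in limma's test on day 4 at 6.7 Gy, with 7 at an unadjusted p under 0.05 upward and 2 downward (9.13% and 13.7% of all probes), and at 7.4 Gy 1 rose and 1 fell (3.55% and 3.10% of all probes). CCND1, the cyclin that responds to growth signals, rose by 0.89 (adjusted p = 0.013) at 7.4 Gy and CDKN2C, an inhibitor of its kinases, fell by 0.78 (adjusted p = 0.003). After 6.7-Gy TBI CCND1 was at 0.69 and CDKN2C at -0.45, with adjusted p of 0.065 and 0.073. CDK2 was at 0.36 and 0.47 and the repressor E2F7 at 1.09 and 0.75, without passing. CDKN1A, the p53-induced inhibitor of cyclin-dependent kinases, was at 0.68 and 0.54 on day 4, with adjusted p of 0.11 and 0.17.

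The genes of G2 and mitosis, which act after replication, had no member that passed in any comparison with controls among 27 tested (36 listed, MKI67 without a probe under its symbol). In limma's test 10 and 2 of them had an unadjusted p under 0.05 on day 4 (9.13% and 11% of all probes upward), 14 and 10 on day 7 (4.57% and 5.86%) and 0 and 1 on day 12 (5.27% and 3.29%), all upward. The 2 of 27 on day 4 at 7.4 Gy lay below the share of all probes. Their median was 0.39 and 0.11 on day 4 and 0.54 and 0.51 on day 7, where the replication genes were at 0.29 and 0.30. PLK1, a mitotic kinase, was at 0.74 and 0.53 on day 4 and at 0.91 and 0.91 on day 7. ECT2 was at 0.86 and 0.53 on day 4, PTTG1 at 0.55 and 0.19 and CENPA at 0.78 and 0.28.

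**Figure D4:**
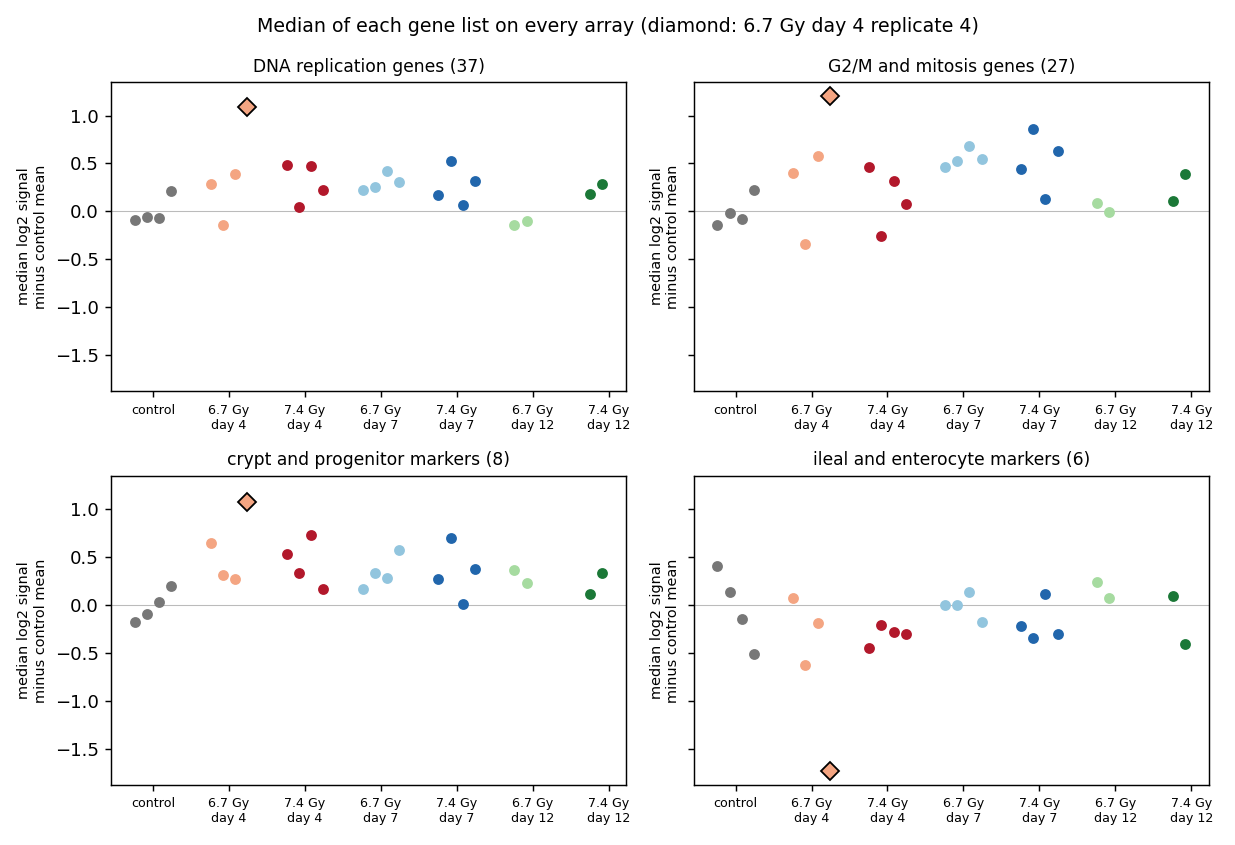
Median log2 signal of 4 gene lists on each array, relative to the mean of the 4 controls; points are animals in order of replicate number and the diamond is replicate 4 of 6.7 Gy day 4. That animal is at 1.09, 1.20 and 1.08 for the replication genes, the G2/M genes and the crypt markers and at -1.73 for the ileal and enterocyte markers.

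Markers of several cell types differed on the same arrays. Of 8 tested crypt and progenitor markers (12 listed), 1 rose at each dose on day 4 (1.38% and 3.55% of all probes rose). EPHB3, a receptor of crypt progenitors, rose by 1.60 and by 1.52 (adjusted p = 0.0015 for both). The stem cell markers LGR5 and OLFM4 did not pass, with LGR5 at -0.03 and 0.09 and OLFM4 at 2.69 and 2.93 (adjusted p of 0.24 and 0.19), while RNF43 was at 0.57 and 0.27 and CDCA7 at 0.80 and 0.52. Summed over the 8 markers, in units of the 75th percentile of the array, the level was 2.41 to 3.55 in controls, 4.47 to 9 at 6.7 Gy and 3.81 to 5.42 at 7.4 Gy on day 4. On day 7 it was 3.44 to 4.63 and 3.22 to 5.2, and on day 12 3.15 to 3.25 and 3.27 to 3.9. The part of this in the replication genes was not tested.

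Of 6 tested ileal and enterocyte markers (10 listed), 1 fell at 6.7 Gy and 2 at 7.4 Gy on day 4 (1.23% and 3.10% of all probes fell). VIL1, the microvillus protein villin, fell at both doses (-1.32 with an adjusted p of 0.0011, -1.27 with an adjusted p of 8.5e-04). EPCAM, an adhesion molecule of the whole intestinal epithelium, fell after the higher dose (-0.62, adjusted p = 0.036). FABP2, a fatty acid-binding protein of enterocytes, was at 2.02 and 0.90 in the other direction without passing (adjusted p of 0.22 and 0.62). The summed level of the 6 markers was 483 to 595 in controls, 166 to 486 and 426 to 462 on day 4, and 572 to 606 and 421 to 684 on day 7. FABP6 made up most of this linear sum in the controls, so the sum does not weigh the 6 markers evenly. VIL1 was at -0.14 and -0.27 on day 7.

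Among lymphoid and myeloid cells, 2 of 7 tested germinal centre markers fell at each dose on day 4 and 1 of 5 B cell markers (1.23% and 3.10% of all probes fell). GCSAM, a germinal centre gene, fell at both doses (-1.09 with an adjusted p of 0.017, -0.92 with an adjusted p of 0.023), STAP1 at 6.7 Gy (-1.36) and ELL3 at 7.4 Gy (-0.93). BCL6, the transcription factor of germinal centre B cells, was at 0.65 and 0.84, without passing at an adjusted p of 0.14 and 0.05. The summed level of the 7 germinal centre markers was 4.62 to 5.73 in controls and 4.5 to 6.56 and 4.43 to 5.45 on day 4, overlapping with the controls at both doses. CD79B, a part of the B cell receptor, fell at both as well (-1.29 with an adjusted p of 0.025, -1.25 with an adjusted p of 0.016). Of the other B cell markers MS4A1 was at -2.63 at both doses and FCER2 at 0.81 and 0.97, without passing. The summed level of the B cell markers was 1.38 to 3.38 in controls and 0.998 to 1.86 and 0.91 to 1.34 on day 4. Of 8 T cell markers none passed in limma's test on day 4, with medians of -0.48 and -0.25 and with 6 and 1 at an unadjusted p under 0.05, all downward (13.7% and 12.5% of all probes downward). On day 7, when their medians were -0.77 and -0.85, CD2 (-0.86), CD3D (-0.92) and CD3G (-0.95) fell at 7.4 Gy (0.720% of all probes fell at this dose and 0.354% at 6.7 Gy). On the same day STAP1 fell at both doses (-1.51 and -1.81), GCSAM (-1.37) and CD79B (-1.34) at 7.4 Gy, and CSF1R, the macrophage growth factor receptor, at both (-0.97 and -0.77), while the other macrophage markers lay between -0.25 and 0.57 without passing. Of 4 macrophage markers 1 rose on day 4 at 7.4 Gy, CD14 by 1.14 (adjusted p = 0.011, with 3.55% of all probes rising). HBB, the beta chain of haemoglobin and 1 of 2 tested erythroid markers, fell at both doses on day 4 (-6.11 and -5.88) and on day 7 (-6.86 and -7.57). AHSP, the other one, was at -0.20 and -0.05 on day 4 without passing, and the summed level of the pair was 2.09 to 7.25 in controls and 0.357 to 0.466 and 0.381 to 0.611 on day 4. Of 4 smooth muscle markers none passed on day 4, 0 and 3 had an unadjusted p under 0.05, all upward (9.13% and 11% of all probes), and control replicate 1 had a median of -1.45 where the other controls lay between 0.39 and 0.51. The part of these cell types in the replication genes was not tested.

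On the slides that held a control, the median difference over the 37 genes between an irradiated animal and that control was 0.49 and 1.08 on day 4 at 6.7 Gy and 0.56 and -0.17 at 7.4 Gy. On day 7 it was 0.19, 0.25, 0.51 and 0.16 at 6.7 Gy and 0.15 and 0.44 at 7.4 Gy. On day 12 it was -0.05 and -0.29 at 6.7 Gy, and the arrays of 7.4 Gy day 12 shared no slide with a control.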

How the data were processed

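Total RNA of 24 ileum samples was labelled with Cy3 and hybridized by the authors to 1-colour Agilent rhesus arrays, which were read with Feature Extraction 11.0.1.1. The deposited scanner files give background-subtracted intensity values, and the deposited normalized table gives log2 values that the authors scaled to the 75th percentile in GeneSpring GX 11.0 and that are centred on each probe's median. The conditions came from the sample titles; for the day 12 arrays the protocol text of the labels gives another day, and the day of the titles, the day field and the methods was used.

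Log2 intensities minus the 75th percentile of each array were computed from the scanner files. Tests were run on the 36108 of 43603 probes for which at least 1 group had all its arrays well above background. The package limma (version 3.58.1; R version 4.3.3) was fitted to the group means of the 24 arrays with Benjamini-Hochberg adjustment, and comparisons were made between irradiated animals and controls, between doses within days and between days with the doses averaged. No depth exists for arrays, and signal over background and the number of animals set the precision. The test was tried on simulated data.

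Each tested gene was accounted for. Values on every array were given for genes altered against controls and for the gene of smallest p in each role, and up to 4 genes of each other list were named by p, with CDKN1A, MKI67 and LGR5 named in any case. The genes and lists were chosen with earlier results of these data known. Genes outside the set were also named through RefSeq accessions. Alternatives were normexp background correction (on median rather than the planned mean signals), quantile normalization, filters, the deposited table, other tests, slide, position and replicate blocks, the mean of a gene's probes, and leaving out each animal.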

Additional observations from a re-analysis of the deposited data

Results flagged for a closer look

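In groups of 4 animals, 50 sets of values were examined for a single animal far from the others, by the gap to its neighbour relative to the range of the group, and chance marks about 1 in 20 sets. The median of the 37 replication genes was 0.21 in control replicate 4, with the next control at -0.06. CCNE1 was 0.48 in replicate 4 of 6.7 Gy day 4, with the next animal at -0.42. LIG1 was 2.29 in replicate 1 of 7.4 Gy day 4, with the next animal at 2.38 in a group of very small range.

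Differences between days passed the test for 3 genes between day 7 and day 4, TYMS at -0.53, RPA1 at -0.30 and LIG1 at -0.29 (5.56% of all probes fell). Between day 12 and day 4 they passed for 7 genes, TYMS at -1.12, ORC3 at -0.91, GINS2 at -0.68, RFC5 at -0.66, CDC7 at -0.41, LIG1 at -0.38 and E2F1 at 0.40. Of all probes 6.80% fell and 10.7% rose between these days. In both comparisons day and array position cannot be told apart. None of the 37 genes passed for a difference between doses.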

How the results depend on the processing

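The median change of the 37 genes against controls moved by less than the spread between animals in each alternative but position, which gave 0.10 and -0.35 on day 4 for the lower and the higher dose. On day 4 at 6.7 Gy 5 genes passed, against 3 with no filter on dim probes, 1 with the compared groups only, 0 by the methods' t-test, 2 with slide as a fixed block and 0 with position. At 7.4 Gy 4 passed, against 2 with the compared groups only, 2 by the methods' t-test (LIG1 and TYMS, of which 1 was at least 2-fold) and 0 with position. On day 7 at 6.7 Gy 1 passed, against 0 with no filter, the compared groups only, the methods' t-test or the replicate block, and at 7.4 Gy 1, against 0 with the compared groups only, the methods' t-test or slide as a fixed block. Between day 12 and day 4 7 passed, against 11 with quantile normalization or slide as a random block and 2 with the compared groups only or the methods' t-test. Between day 12 and day 7 none passed, against 1 with the compared groups only. The cause was not tested, and the share of all probes was not counted in the alternatives. TYMS passed on day 4 in all alternatives except position (adjusted p of 0.068 and 0.27) and, at 6.7 Gy, the methods' t-test (0.14). LIG1 on day 4 at 6.7 Gy, which had missed the threshold, passed in 6 alternatives. Leaving out 1 animal gave 1 to 7 and 2 to 4 genes on day 4, 0 to 1 and 0 to 1 on day 7, 0 to 4 between day 7 and day 4 and 2 to 14 between day 12 and day 4. Each animal gave 1 array, so the replicate numbers pair no animals. Deviations of same-numbered animals correlated with a median r of 0.03 (-0.26 to 0.36), against -0.01 (-0.36 to 0.27) for differently numbered animals. The replicate block changed no other count by over 1.5 times. With 4 or 2 animals a group, genes near the threshold cannot be ordered. Position could not be fitted where days 7 and 12 were compared with controls or day 4, and it was not fitted in the other comparisons of these days. The planned description of promoter motifs was not made.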
